A study of Mus musculus with 10 samples.

Results

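The acyl-CoA thioesterase family was followed in regenerating mouse liver. Its members were the 10 genes Acot1, Acot2, Acot3, Acot4, Acot5, Acot6, Acot7, Acot8, Acot12 and Acot13, taken by symbol from a count table of 23056 genes, and all 10 passed the filter on low counts. The left lateral and median lobes had been cut away (partial hepatectomy), and 12 hours later liver was sampled from Ifrd1 knockout mice (KO, n = 4 libraries) and wild-type mice (WT, n = 6 libraries). Ifrd1 encodes a transcriptional co-regulator, and the stated question was what it does in liver regeneration. The labels give no strain, age or sex, and do not say how or in which cells Ifrd1 was knocked out. Every animal of both groups had been operated on, and unoperated liver was not analysed here, so all values compare genotypes after surgery. The labels number the libraries without naming the animals, so the errors and p-values below measure the spread between these libraries.

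Acyl-CoA thioesterases cut the thioester bond of fatty acyl-CoA, which releases the free fatty acid and coenzyme A. In the liver they act on the same activated fatty acids that enter β-oxidation, lipid synthesis or bile acid conjugation, and several are textbook targets of the fatty acid receptor PPARα. The type I enzymes (Acot1 to Acot6) are close relatives, while the type II enzymes (Acot7, Acot8, Acot12 and Acot13) belong to the hot-dog fold family. By the textbook location of the enzymes, Acot1, Acot7 and Acot12 were grouped as cytosolic, Acot2 and Acot13 as mitochondrial, and Acot3, Acot4, Acot5, Acot6 and Acot8 as peroxisomal.

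The coding ends were not read for the grouping, although the textbook locations may already rest on them. They are printed for the 5 peroxisomal members and for Acot1 and Acot2, the closest pair of the family. Each line gives the last 30 coding bases before the stop codon, from GENCODE M21 on GRCm38, 5′ to 3′ on the coding strand, with the final 3 codons in capitals.
Acot3, chr12:84058994-84059023, plus strand: ggcaaaaagaagacaatcccaGCAAAACTG
Acot4, chr12:84043764-84043793, plus strand: agtacccacagcagagcctccTGTAGACTG
Acot5, chr12:84075877-84075906, plus strand: ggggacaagaggccaagcccaGCAAAACTA
Acot6, chr12:84109507-84109536, plus strand: ggtgaaaagcctgccaggcacAGCAAACTG
Acot8, chr2:164792895-164792924, minus strand: ttgaagcctcaggtgtcagagAGTAAGCTA
Acot1, chr12:84017347-84017376, plus strand: agtgagtgtttgcatgtgtctCCTAAAATA
Acot2, chr12:83993048-83993077, plus strand: ttcttccacaaacagttgggtAGCAAGAGT
All 5 peroxisomal members ended in CTG or CTA, a leucine codon, after AAA, AAG or AGA, a codon for a basic residue. Peroxisomal enzymes commonly carry their import signal in the final 3 residues, of which serine, lysine and leucine are the classical form. Acot1 and Acot2 ended otherwise. Of the members not printed, the cytosolic Acot12 also ended in a leucine codon (TTA), after GTG, a valine codon. The coding sequence of Acot2 was 102 bases (34 codons) longer than that of Acot1, and Acot2 is known for an added mitochondrial targeting stretch at its start.

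All 6 type I genes lie on the plus strand of chromosome 12 within 123.5 kb, in the order Acot2, Acot1, Acot4, Acot3, Acot5 and Acot6 (GENCODE M21 on GRCm38). Acot2 (ENSMUSG00000021226.7) spans chr12:83987861-83993873 and Acot1 (ENSMUSG00000072949.6) spans chr12:84009490-84018371. Acot4 (ENSMUSG00000052392.5) spans chr12:84038379-84048601 and Acot3 (ENSMUSG00000021228.15) spans chr12:84052144-84060402. Acot5 (ENSMUSG00000042540.12) spans chr12:84069325-84076020 and Acot6 (ENSMUSG00000043487.4) spans chr12:84100654-84111349. The type II genes are scattered: Acot7 (ENSMUSG00000028937.14) is at chr4:152178134-152271855 on the plus strand, and Acot8 (ENSMUSG00000017307.16) is at chr2:164792765-164804882 on the minus strand. Acot12 (ENSMUSG00000021620.4) is at chr13:91741512-91786148 on the plus strand and Acot13 (ENSMUSG00000006717.7) at chr13:24817948-24831540 on the minus strand. All 10 are annotated as protein coding.

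The type I coding sequences were 75.3% to 95.6% identical over 15 pairs, with Acot1 and Acot2 the closest. Of all 100-base windows of the transcript, 21.9% in Acot1, 17.1% in Acot2, 16.6% in Acot3, 8.85% in Acot4, 8.32% in Acot5 and 1.82% in Acot6 also occurred in the transcript of another gene, inside or outside the family. For Acot4 these were almost all shared with 4732463B04Rik (8.83% of its windows, against 0.344% with Acot3), and for Acot3 the largest share was with Gm49366 (9.9%). Read assignment is uncertain for such windows. The antisense gene 4732463B04Rik and the same-strand gene Gm49366 overlap exons of Acot4 and Acot3, Snx21 overlaps Acot8, and 4833422C13Rik overlaps Acot12. Whether strand was used in counting is not given in the sources used here, so reads of these partners cannot be told apart, and those of Gm49366 could not be with strand either.

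Library totals lay between 12307446 and 17098012 counts. Ifrd1 itself averaged 19.5 ± 4.38 CPM in KO livers and 58.7 ± 15.6 CPM in WT livers (SD, n = 4 and 6; CPM is the count normalised to the TMM-scaled library size). Its range was 13.0 to 22.6 CPM in KO and 40.2 to 81.7 CPM in WT, without overlap. Its log2 fold change was -1.59, with an SE of 0.23 and a Benjamini-Hochberg adjusted p of 0.0258 by edgeR, and the two-sided exact permutation p was 0.00476, the smallest the 10 libraries allow. This adjusted p ranged from 0.00104 to 0.132 when each library was left out in turn, and it missed 0.05 without any single KO library and without WT replicate 1 or 5 (edgeR). WT replicate 4 stood apart from its group: its score on principal component 1 of log2 CPM was -40.1, beside the KO libraries (-46.8 to -42.2) and away from the other WT libraries (11.8 to 79.3). Across genes its mean correlation was 0.970 with the KO libraries and 0.918 with the other WT libraries, while its Ifrd1 level of 49.6 CPM was inside the WT range. Fold changes and calls for the family are therefore given with and without WT replicate 4. Levels, coefficients of variation, shares and correlations include it unless stated.

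KO libraries had almost no Acot5 transcript, while 5 of 6 WT libraries had clear levels. With all 10 libraries Acot5 was the only member called by edgeR. Acot4 was higher on average in KO livers (44.7 ± 9.52 CPM) than in WT livers (29.3 ± 7.08 CPM), and Acot6 was lower on average (1.27 ± 0.556 CPM in KO and 4.03 ± 2.14 CPM in WT, SD, n = 4 and 6), but both missed the threshold in edgeR (DESeq2 called Acot6). The other members had log2 fold changes between -0.42 and 0.31. Over 13688 genes tested with edgeR, 0 of 10 members were called higher and 1 of 10 lower at an adjusted p under 0.05, against 0.563% of all genes called higher and 0.767% called lower (1.33% in either direction). At an unadjusted p under 0.05 the counts were 1 of 10 higher and 2 of 10 lower, against 11.6% and 14.4% of all genes (26% in either direction). DESeq2 called 0 members higher and 2 lower (Acot5 and Acot6), against 3.66% and 6.6% of all genes (10.3% in either direction). By limma-voom 0 members were called, against 1.52% of all genes higher and 0.548% lower (2.07% in either direction). Without WT replicate 4, 1 member was called higher (Acot4) and 2 lower (Acot5 and Acot6), against 10.5% and 10.9% of all genes tested (21.4% in either direction). The family was selected on the KO-against-WT fold change of Acot5 in these same libraries, known from earlier results, so its calls and fold changes are a description and support nothing further.

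The median log2 fold change of the 10 members was -0.04, with 5 above and 5 below 0 (Acot3, at 0.01, is just below 0 with RLE scaling), and the median over all 13688 genes tested was -0.02. In 0 of 10 members were the KO and WT libraries fully separated, against 3.61% of all genes separated with KO higher and 3.29% with KO lower (6.9% in all). For 7 of the 10 members WT replicate 4 had a level nearer to the KO average than to that of its own group's other libraries. This library was nearer to KO across genes as well (mean correlation 0.970 with KO and 0.918 with other WT libraries). Where group averages were close, as for Acot8 (15.1 CPM in KO and 14.7 CPM in WT), the nearer side means little. KO replicate 4 had the highest KO value for 7 of the 10. For neither count was the share over all genes worked out.

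**Figure D1:**
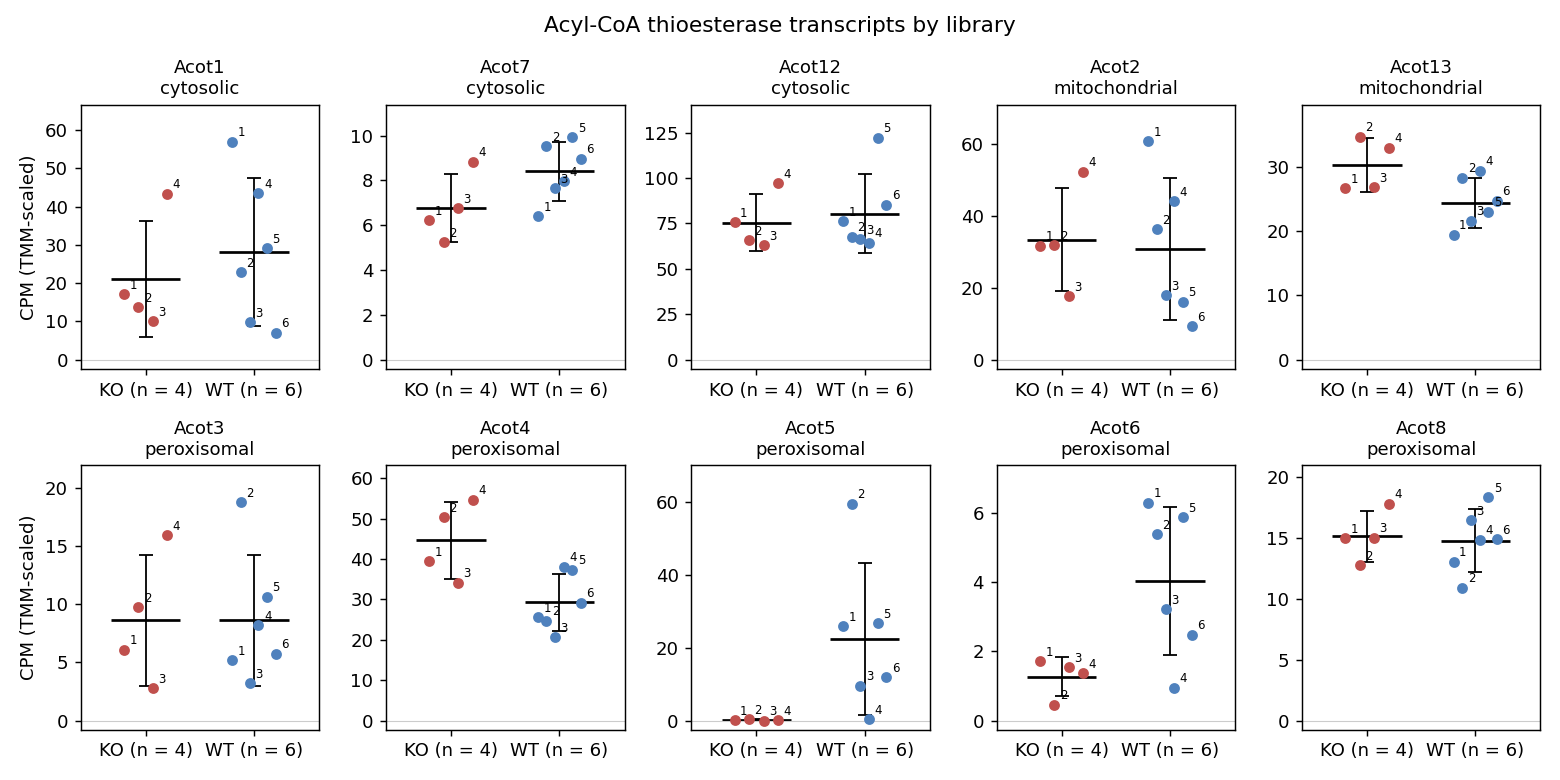
CPM of each of the 10 acyl-CoA thioesterase genes (vertical axis, 1 panel per gene) in every library, KO to the left (n = 4) and WT to the right (n = 6), with group means and SD. The KO points for Acot5 lie between 0 and 0.385 CPM and WT replicate 4 lies beside them at 0.340 CPM, while the groups overlap for every member.

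Acot5, a peroxisomal type I thioesterase of mouse, had 0.11, 0.39, 0.00 and 0.12 CPM in KO replicates 1 to 4. WT replicates 1 to 6 had 25.98, 59.66, 9.56, 0.34, 26.84 and 11.91 CPM. All 4 KO libraries and WT replicate 4 were near 0, the other 5 WT libraries were at 9.56 CPM or above, and the groups overlapped only because KO replicate 2 (0.39 CPM) exceeded WT replicate 4. The summed counts behind this were 9 of 59438166 in KO, or 0.151 CPM of the unscaled totals (95% exact Poisson interval 0.0692 to 0.287), and 1777 of 81153803 in WT, or 21.9 CPM (20.9 to 22.9). These intervals cover counting error only. WT replicate 4 held 5 counts, or 0.349 CPM (0.113 to 0.814). KO replicate 3 held 0 counts, which allows up to 0.231 CPM (3 counts). The fitted log2 fold change of Acot5 was -7.13 (SE 1.32), and -7.40 (SE 0.82) without WT replicate 4. The call was made in both of these fits, and was lost when any other single library was left out, with the log2 fold change then between -7.91 and -6.55. Over the 6 WT libraries the coefficient of variation of Acot5 was 93.4%, the highest in the family.

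Markers of other liver cells were read beside Acot5. All 10 markers of macrophages and Kupffer cells were below 0 on the log2 fold change scale (median -1.05). With edgeR 0 were called lower (0.767% of all genes), and 6 were lower at an unadjusted p under 0.05 (14.4% of all genes). DESeq2 called 3 lower (6.6% of all genes) and limma-voom 0 (0.548%). Without WT replicate 4, edgeR called 4 of these markers lower, against 10.9% of all genes tested. Their summed level was 47.8 to 92.6 CPM in KO and 62.5 to 385 CPM in WT, with the lowest WT value in WT replicate 4 and the highest in WT replicate 2, the libraries with the lowest and highest WT Acot5. Summed neutrophil and monocyte markers (8 genes) ranged from 8.91 to 18.6 CPM in KO and from 12.4 to 176 CPM in WT. Of the WT libraries the sum was again lowest in WT replicate 4 and highest in WT replicate 2. Of the 6 genes tested, 5 had fold changes below 0 and 1 above. Ccr2 ranged higher in KO (1.16 to 2.92 CPM) than in WT (0.618 to 1.66 CPM), and Ly6g was at or near 0 in every library. Summed hepatocyte markers were 59060 to 69244 CPM in KO and 43997 to 94656 CPM in WT. They too were lowest of the WT libraries in WT replicate 4 and highest in WT replicate 2. The sums of endothelial, stellate, cholangiocyte, lymphocyte and erythroid markers overlapped between KO and WT, as did those of the lists above. Of 8 endothelial markers, 2 were higher and 2 lower at an unadjusted p under 0.05 (11.6% and 14.4% of all genes, edgeR). DESeq2 called 1 higher and 2 lower (3.66% and 6.6% of all genes). Lyve1 ranged from 4.85 to 6.53 CPM in KO and from 10.7 to 51.1 CPM in WT. Eng ranged from 41.5 to 57.9 CPM in KO and from 20.6 to 42.9 CPM in WT. Summed adipocyte markers were 1783 to 3281 CPM in KO and 573 to 2571 CPM in WT, of which Pck1, a gluconeogenic gene that liver also expresses, made up 1770 to 3266 CPM in KO and 566 to 2559 CPM in WT. Of that list, both tested genes had fold changes above 0 (median log2 fold change 0.72), and the adipocyte-defining Adipoq and Plin1 were at or near 0 in every library. The part of these cells in the Acot5 difference was not tested, and in bulk tissue fewer cells of a type and less RNA per cell cannot be told apart.

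Acot4, which prefers succinyl-CoA and related dicarboxylic acyl-CoAs in mouse peroxisomes, had 39.44, 50.31, 34.12 and 54.73 CPM in KO replicates 1 to 4. WT libraries ranged from 20.7 to 38.1 CPM with a median of 27.4 CPM. The highest WT value was that of WT replicate 4 at 38.11 CPM, followed by WT replicate 5 at 37.37 CPM, and these were the WT libraries above the lowest KO library. The log2 fold change was 0.61 (SE 0.20) with all libraries, not called, and 0.70 (SE 0.19) without WT replicate 4, called. The antisense gene 4732463B04Rik over Acot4 and Acot3 had 3.32 ± 1.47 CPM in KO and 1.83 ± 0.606 CPM in WT (log2 fold change 0.85, SE 0.37, not called), and its part in the Acot4 value was not tested.

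Acot6, a peroxisomal enzyme known in mouse to act on phytanoyl-CoA and pristanoyl-CoA, had 1.71, 0.46, 1.54 and 1.37 CPM in KO replicates 1 to 4. In WT it ranged from 0.953 to 6.28 CPM with a median of 4.29 CPM. WT replicate 4 had the lowest WT value and was the WT library inside the KO range, so Acot6 shared with Acot5 the libraries that were low. Its log2 fold change was -1.65 (SE 0.51), not called with all 10 libraries by edgeR and called without WT replicate 4 (-1.85, SE 0.40).

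Acot3, a peroxisomal long-chain thioesterase, had 6.07, 9.71, 2.77 and 15.92 CPM in KO replicates 1 to 4 and 3.21 to 18.8 CPM in WT, with a WT median of 6.94 CPM. The groups covered the same range, with KO replicate 4 and WT replicate 2 the highest. The log2 fold change of Acot3 was 0.01 (SE 0.51), and -0.01 (SE 0.57) without WT replicate 4, although its coding sequence is 85.8% identical to that of Acot5. Acot8, the peroxisomal type II enzyme with a broad range of acyl-CoA substrates that include bile acid CoA esters, averaged 15.1 ± 2.08 CPM in KO and 14.7 ± 2.58 CPM in WT (SD, n = 4 and 6). Its log2 fold change was 0.04 (SE 0.17).

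Acot2, the mitochondrial type I enzyme for long-chain acyl-CoA, had 31.77, 31.90, 17.75 and 52.43 CPM in KO replicates 1 to 4. The WT libraries lay between 9.35 and 60.9 CPM with a median of 27.2 CPM, so the WT range enclosed all KO libraries. Its log2 fold change was 0.12 (SE 0.48), and 0.25 (SE 0.51) without WT replicate 4. Acot13, the small mitochondria-associated thioesterase also called Them2, had 26.59, 34.59, 26.82 and 32.90 CPM in KO and 19.4 to 29.3 CPM in WT, with a WT median of 23.8 CPM. WT replicates 2 and 4 reached into the KO range. The log2 fold change of Acot13 was 0.31 (SE 0.15), not called, and 0.37 without WT replicate 4, also not called.

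Acot1, the cytosolic twin of Acot2 and a known PPARα target, had 17.16, 13.79, 10.14 and 43.35 CPM in KO replicates 1 to 4. The WT libraries ranged from 7.04 to 56.9 CPM with a median of 26.0 CPM, and WT was the wider group at both ends. The log2 fold change of Acot1 was -0.42 (SE 0.59), and -0.25 (SE 0.63) without WT replicate 4. Acot1 and Acot2 shared their highest libraries, WT replicate 1, KO replicate 4 and WT replicate 4, and their lowest, WT replicate 6. They parted in WT replicate 5, which had 29.17 CPM of Acot1 and 16.14 CPM of Acot2. Of the 100-base windows of the Acot1 transcript, 16.5% occurred in Acot2, and the part of such shared sequence in their likeness was not tested.

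Acot12, the cytosolic acetyl-CoA hydrolase of liver, averaged 75.5 ± 15.5 CPM in KO and 80.4 ± 21.9 CPM in WT (SD, n = 4 and 6), with a log2 fold change of -0.09 (SE 0.20). The KO libraries spanned 63.1 to 97.2 CPM and the WT libraries 64.3 to 122 CPM. Acot7, a cytosolic long-chain thioesterase best known from brain, averaged 6.77 ± 1.51 CPM in KO and 8.41 ± 1.31 CPM in WT (SD, n = 4 and 6), and its log2 fold change was -0.31 (SE 0.20). Neither gene was called with or without WT replicate 4. Among WT libraries the coefficient of variation was 15.6% for Acot7, 15.8% for Acot13, 17.5% for Acot8 and 27.2% for Acot12 of the type II members. Of the type I members it was 24.2% for Acot4, below Acot12, and 53.0% to 93.4% for the other 5.

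**Figure D2:**
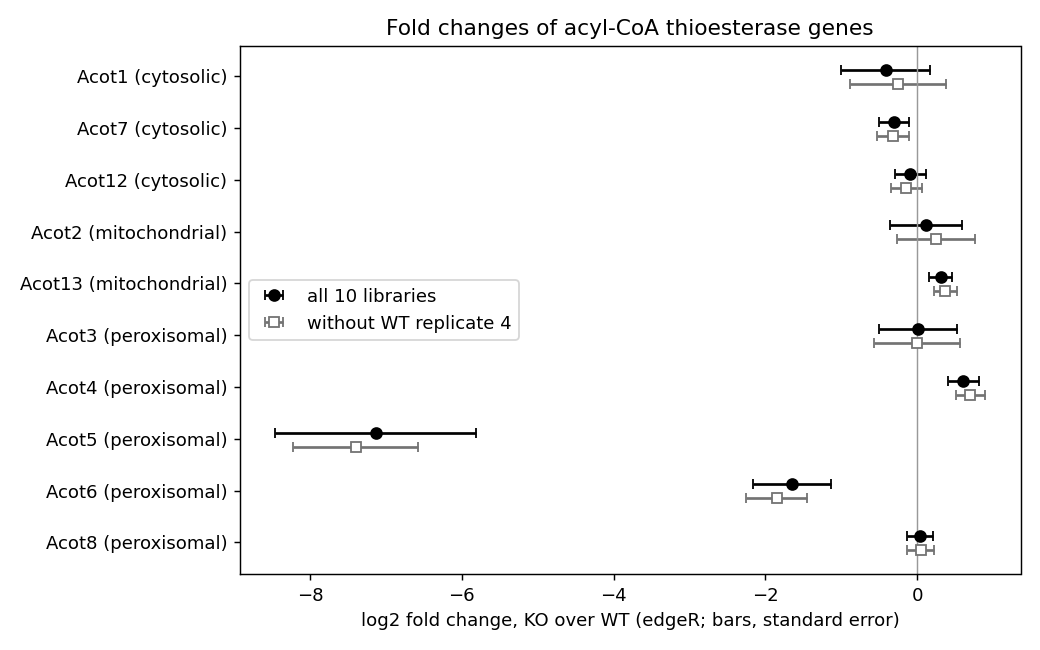
Log2 fold change of each member, KO over WT (positive values are higher in KO), with its standard error, for all 10 libraries and without WT replicate 4. Acot5 stands at -7.13 and -7.40, Acot6 at -1.65 and -1.85, Acot4 at 0.61 and 0.70, and the other 7 members lie between -0.42 and 0.37.

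By compartment, the log2 fold changes of the 3 cytosolic members were below 0 (median -0.31) and those of the 2 mitochondrial members above 0 (median 0.21). The 5 peroxisomal members were mixed, with 3 above 0 (Acot3 just below it with RLE scaling) and 2 below 0, a median of 0.01 and a range of -7.13 to 0.61. Acot2 and Acot12 lay so near 0 that leaving out single libraries turned their direction. Transcript levels were compared between genes as CPM per kilobase of annotated exon. On that scale the order of mean level in KO was Acot13 (40.6), Acot12 (22.9), Acot2 (15.2), Acot8 (7.57), Acot4 (6.69), Acot1 (5.39), Acot7 (3.19), Acot3 (2.51), Acot6 (0.198) and Acot5 (0.102). In WT the order was Acot13 (32.8), Acot12 (24.4), Acot5 (14.7), Acot2 (14.0), Acot8 (7.37), Acot1 (7.19), Acot4 (4.39), Acot7 (3.96), Acot3 (2.50) and Acot6 (0.628). Acot5 was the third member by mean level in WT and the last in KO. The WT place rested on single libraries: without WT replicate 2 the WT mean was 9.83 for Acot5 and 13.5 for Acot2, and without WT replicate 5 it was 14.1 for Acot5 and 15.4 for Acot2. In KO Acot5 was last whichever library was left out. In KO the library ranges of neighbours in this order overlapped except between Acot13 and Acot12 and between Acot3 and Acot6. In WT the ranges of all neighbours overlapped, and in WT replicate 5 Acot12 (37.1 CPM per kilobase) exceeded Acot13 (30.9 CPM per kilobase).

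Peroxisomal members supplied 16.3% ± 0.155 of the summed family level per kilobase in KO (SD, n = 4, range 16.1% to 16.5%) and 25.6% ± 8.13 in WT (n = 6, range 14.5% to 39.0%). Only WT replicate 4, at 14.5%, lay at or below the KO range. Mitochondrial members supplied 53.7% ± 3.50 in KO (50.5% to 58.6%) and 42.2% ± 7.68 in WT (30.9% to 54.2%, highest in WT replicate 4). Cytosolic members supplied 30.0% ± 3.55 in KO and 32.1% ± 5.82 in WT. Without WT replicate 4 the WT means were 39.8% mitochondrial, 32.3% cytosolic and 27.9% peroxisomal. Shares are parts of a whole, so the near absence of Acot5 in KO raises the others there. Acot5 averaged 0.0950% of the whole in KO and 12.1% in WT. The mitochondrial sum was 55.9 ± 10.7 CPM per kilobase in KO and 46.8 ± 10.3 in WT, with overlapping groups. The summed level of all members was 104 ± 22.1 CPM per kilobase in KO and 112 ± 21.9 CPM per kilobase in WT. Acot5 made up 0% to 1.49% of the peroxisomal sum in KO and 1.41% to 71.8% in WT. With Acot5 left out, the peroxisomal sum was 17.0 ± 3.57 CPM per kilobase in KO (13.7 to 22.0) and 14.9 ± 2.27 CPM per kilobase in WT (12.8 to 18.8), and the groups overlapped. These shares were read off without a test, since Acot5 was among the reasons for choosing the family.

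**Figure D3:**
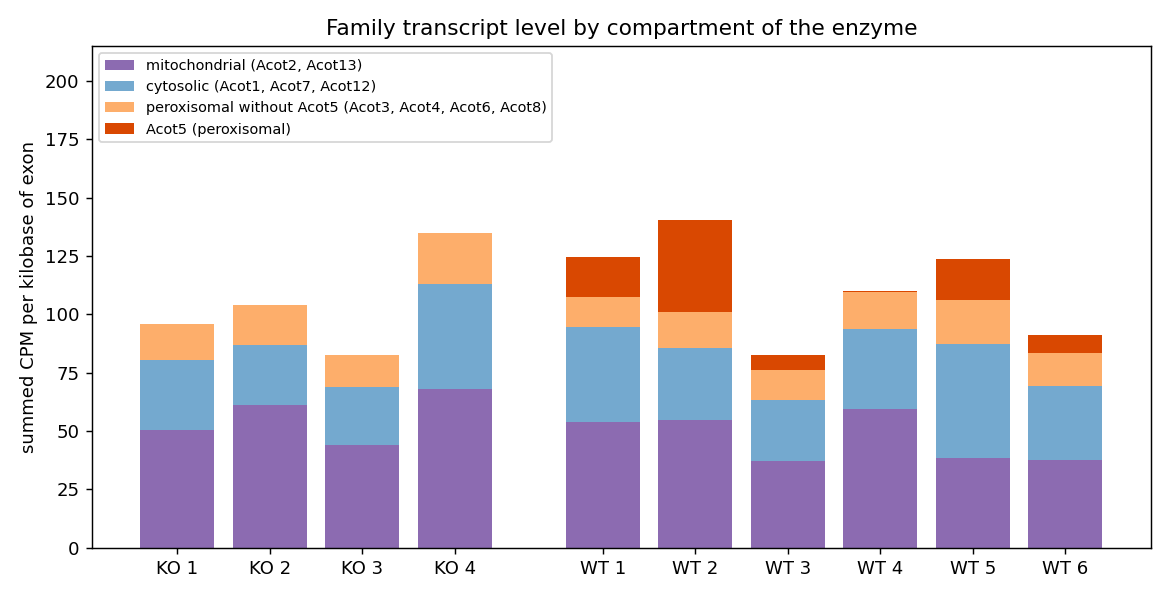
Summed CPM per kilobase of exon (vertical axis) in each library, KO 1 to 4 on the left and WT 1 to 6 on the right, stacked by the compartment of the enzyme with Acot5 drawn apart from the other peroxisomal members. The peroxisomal sum is 13.7 to 22.0 in KO and 15.9 to 54.7 in WT, highest in WT replicate 2 and lowest of the WT libraries in WT replicate 4.

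Along the gene cluster, the fold changes did not run together. Acot4 (0.61) and Acot3 (0.01) lie between Acot1 (-0.42) and Acot5 (-7.13), and Acot6 (-1.65) follows Acot5. The nearest tested genes outside the cluster were Riox1 upstream of Acot2 (log2 fold change -0.45, SE 0.29) and Dnal1 downstream of Acot6 (-0.63, SE 0.40), and neither was called.

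**Figure D4:**
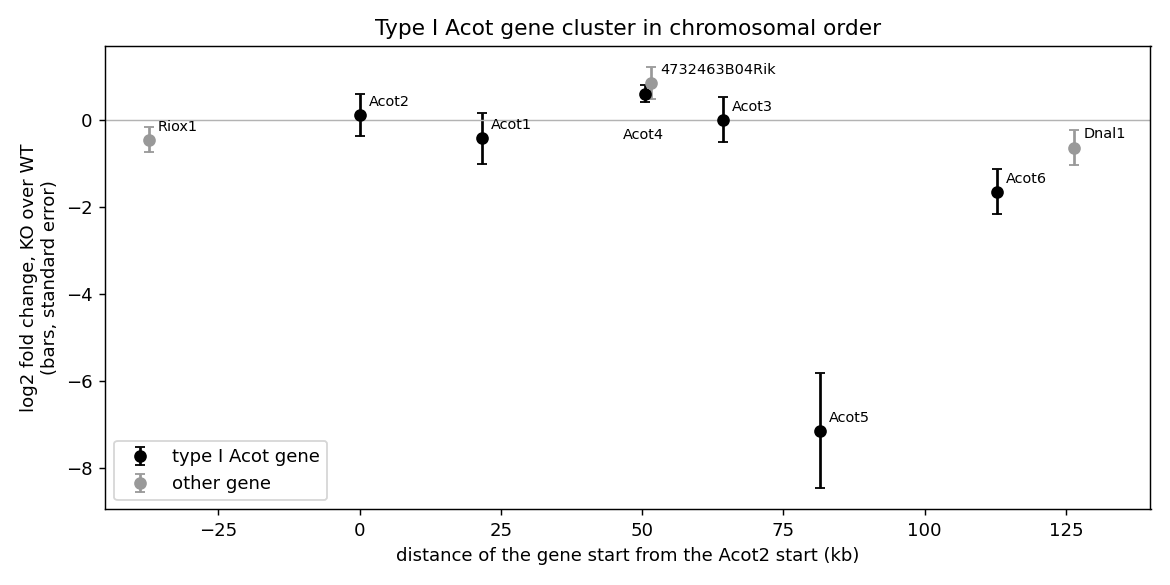
Log2 fold change, KO over WT, with its standard error (vertical axis) against the distance of each gene's start from the start of Acot2 in kb, for the 6 type I Acot genes and the other tested genes in and beside the cluster. Acot5 is the deepest point at -7.13, next to Acot3 at 0.01 and Acot6 at -1.65.

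The 250 bases before the RefSeq start are shown for Acot5, for its nearest relative Acot3 and for Acot4, 3 neighbours of the cluster with log2 fold changes of -7.13, 0.01 and 0.61. The sequences are RefSeq's on GRCm38.p6, 5′ to 3′, and such windows were matched by symbol for 8 of the 10 members. Capitals mark matches on either strand to 5 motifs. They were the AP-1 site (TGANTCA), the CCAAT box as named, the E-box (CACGTG), the TATA-type box (TATAAA) and the antioxidant response core (TGACNNNGC).
Acot5, chr12:84069074-84069323, plus strand: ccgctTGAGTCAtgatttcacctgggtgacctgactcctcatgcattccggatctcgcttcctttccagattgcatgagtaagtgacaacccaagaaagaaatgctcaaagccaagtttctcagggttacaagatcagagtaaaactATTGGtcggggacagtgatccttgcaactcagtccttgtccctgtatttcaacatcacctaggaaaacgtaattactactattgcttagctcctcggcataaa
Acot3, chr12:84051894-84052143, plus strand: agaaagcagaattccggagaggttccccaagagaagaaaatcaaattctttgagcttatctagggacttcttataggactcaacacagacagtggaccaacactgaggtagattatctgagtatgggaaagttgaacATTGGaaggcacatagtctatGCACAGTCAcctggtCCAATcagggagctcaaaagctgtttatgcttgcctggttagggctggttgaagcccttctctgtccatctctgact
Acot4, chr12:84038129-84038378, plus strand: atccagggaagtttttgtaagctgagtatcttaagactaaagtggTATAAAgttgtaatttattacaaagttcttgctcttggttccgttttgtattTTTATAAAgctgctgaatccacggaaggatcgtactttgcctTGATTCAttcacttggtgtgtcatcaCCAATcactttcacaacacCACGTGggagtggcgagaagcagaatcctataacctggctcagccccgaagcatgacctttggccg
The Acot5 window held an AP-1 site with its first base 245 bases before the start, and a CCAAT box on the reverse strand at 103 bases. Acot4 held an AP-1 site at 111 bases, a CCAAT box at 85 bases, an E-box at 66 bases and TATA-type boxes at 205 and 151 bases, the last overlapping a match on the reverse strand. Acot3 held CCAAT boxes at 77 bases and, on the reverse strand, at 113 bases, and the antioxidant core on the reverse strand at 92 bases. Of 32851 mouse promoter windows of the same length, the AP-1 site was in 6.75%, the CCAAT box in 33.8%, the E-box in 6.02%, the TATA-type box in 12.4% and the antioxidant core in 10.2%. The direct repeat bound by PPARα with its partner RXR was searched as a tandem pair of AGGTCA with any single base between, and likewise of AGGNCA. These occurred in 0.0335% and 0.338% of windows and in 0 of the 8 members' windows. The hexamer AGGTCA alone was in 14.0% of windows and in those of Acot5, Acot4 and Acot12. The Acot3 and Acot5 windows were 51.6% identical, within the 43.6% to 53.6% of the 18 pairs that were not both type I. A match describes letters in a window and is no evidence of binding.

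Genes whose log2 CPM followed a member most closely over the 10 libraries were found for 1 member of each compartment, as Pearson's r, which the libraries' shared genotype and shared differences enter. Acot5 was followed by Akr1b7, an aldo-keto reductase (r = 0.987 over 10 libraries and 0.981 over the 6 WT libraries), by Dusp16, a MAP kinase phosphatase (0.985 and 0.972), and by Maff, a small MAF transcription factor (0.985 and 0.984). Akr1b7 was at 0.511 ± 0.220 CPM in KO and 66.3 ± 71.0 CPM in WT, with 1.97 CPM in WT replicate 4 and at least 15.1 CPM in the other WT libraries. Dusp16 was at 18.1 ± 3.02 CPM in KO and 56.2 ± 21.6 CPM in WT, with 19.0 CPM in WT replicate 4. Maff was at 1.99 ± 0.587 CPM in KO and 7.44 ± 3.75 CPM in WT, with 1.91 CPM in WT replicate 4. All 3 were low in the same 5 libraries as Acot5, which follows from picking them by r over these libraries. The same 5 libraries also lay together on principal component 1 (-46.8 to -40.1). The r over the 6 WT libraries includes WT replicate 4, the lowest of them for Acot5 and for each of these 3 genes. An r without WT replicate 4 was not worked out.

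**Figure D5:**
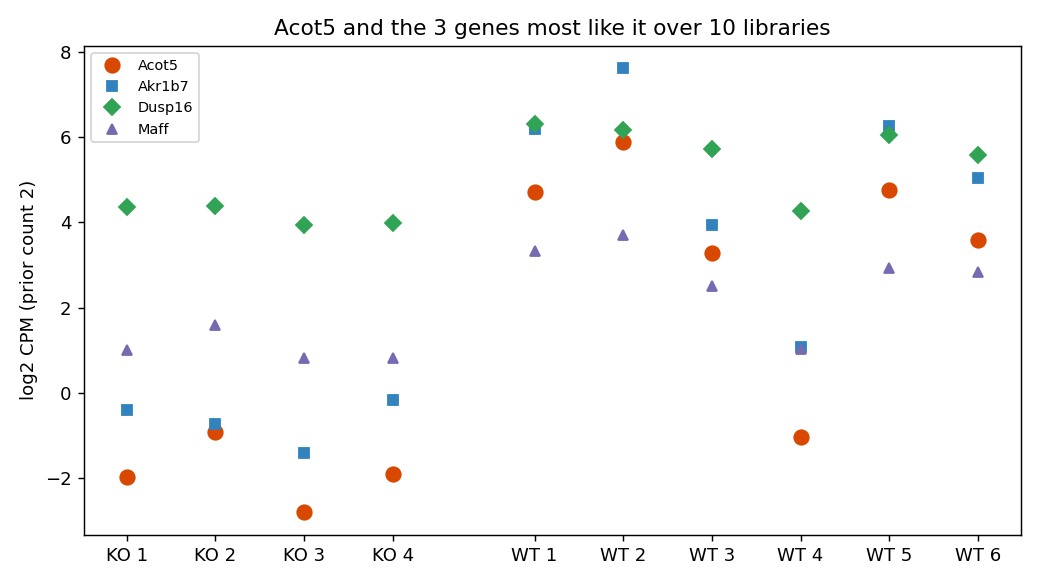
Log2 CPM (prior count 2, vertical axis) of Acot5, Akr1b7, Dusp16 and Maff in KO 1 to 4 and WT 1 to 6. All 4 genes are low in the KO libraries and in WT replicate 4 and higher in the other 5 WT libraries. Akr1b7, Dusp16 and Maff were picked for following Acot5 over these libraries.

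Acot2 was followed by Btd, the gene of biotinidase (r = 0.964 over 10 libraries and 0.987 over 6 WT libraries), by Ccdc117 (0.941 and 0.963) and by Glrx, a glutaredoxin (0.937 and 0.968). Acot1 was followed by Cd24a, a surface glycoprotein (0.929 over both the 10 and the 6 libraries), by Il2rb, an interleukin receptor chain (0.850 and 0.900), and by Bsdc1 (0.850 and 0.840). Each of these 6 genes had overlapping groups: Btd was at 66.8 ± 7.96 CPM in KO and 58.3 ± 15.5 CPM in WT, and Cd24a at 4.69 ± 1.82 CPM in KO and 6.34 ± 3.05 CPM in WT. Il2rb was below 1.5 CPM in every library, so its r rests on few counts.

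The genes that make, carry or burn the family's substrates were read from lists of known pathway members. Of 17 acyl-CoA synthetases and fatty acid transport proteins tested, 1 rose in KO and 0 fell (median log2 fold change 0.51). The riser was Slc27a2, which activates very long-chain fatty acids, at 1082 ± 145 CPM in KO and 541 ± 140 CPM in WT (log2 fold change 1.00, SE 0.21, adjusted p = 0.0466, edgeR). Of 23 genes listed for peroxisomal β-oxidation and related steps, 1 rose and 0 fell (median 0.44). It was Hacl1, the lyase of α-oxidation, at 115 ± 34.0 CPM in KO and 44.3 ± 17.9 CPM in WT (log2 fold change 1.37, SE 0.29, adjusted p = 0.0468, edgeR).

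Of 23 mitochondrial β-oxidation genes, 3 rose in KO and 0 fell (median log2 fold change 0.49). Eci1, an enoyl-CoA isomerase, was at 113 ± 15.0 CPM in KO and 55.8 ± 15.6 CPM in WT (log2 fold change 1.01, SE 0.20, adjusted p = 0.0440, edgeR). Hadh, the short-chain hydroxyacyl-CoA dehydrogenase, was at 151 ± 14.9 CPM in KO and 82.1 ± 19.0 CPM in WT, and Acadm, the medium-chain acyl-CoA dehydrogenase, at 311 ± 61.8 CPM in KO and 168 ± 40.4 CPM in WT. Of 10 genes for acyl-CoA and fatty acid binding, 1 rose and 0 fell (median 0.68): Fabp2, an intracellular fatty acid carrier, was at 122 ± 41.2 CPM in KO and 52.5 ± 16.2 CPM in WT. Across these 4 lists, in the order given, 8 of 17, 13 of 23, 15 of 23 and 7 of 10 genes had higher KO levels with an unadjusted p under 0.05 (11.6% of all genes), and 0, 1, 0 and 0 were lower (14.4% of all genes, edgeR). DESeq2 called 6, 4, 9 and 3 higher (3.66% of all genes) and 0 lower in each list, and limma-voom called 1, 1, 4 and 1 higher (1.52%) and 0 lower. Without WT replicate 4 edgeR called 8 of 17, 8 of 23, 11 of 23 and 6 of 10 higher, against 10.5% of all genes, and 0, 1, 0 and 0 lower, against 10.9%. In WT replicate 4 all 6 named genes had the highest value of the WT group.

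Among 33 known PPARα targets other than the members, 1 rose in KO (Acadm) and 0 fell, with a median log2 fold change of 0.40 and 13 below 0. At an unadjusted p under 0.05, 14 of 33 were higher and 4 lower in KO (11.6% and 14.4% of all genes, edgeR). DESeq2 called 10 higher and 2 lower (3.66% and 6.6% of all genes), and limma-voom 4 higher and 0 lower (1.52% and 0.548%). Without WT replicate 4, edgeR called 14 higher and 3 lower (10.5% and 10.9% of all genes). The same shares of all genes apply to the next 3 lists. For PPARα, its relatives and its partners, 0 of 17 genes were called by edgeR, with 4 higher and 2 lower at an unadjusted p under 0.05, 1 in each direction by DESeq2 and 0 by limma-voom, and 6 higher and 2 lower by edgeR without WT replicate 4. Ppara itself, which encodes the receptor, was at 34.8 ± 8.40 CPM in KO and 21.2 ± 5.39 CPM in WT. Of 16 genes of coenzyme A synthesis and turnover, 0 were called by edgeR, 2 in each direction at an unadjusted p under 0.05, 1 in each direction by DESeq2 and 1 higher by limma-voom, and 1 higher and 2 lower by edgeR without WT replicate 4. Of 19 genes of peroxisome biogenesis, 0 were called by edgeR or limma-voom, 5 were higher and 0 lower at an unadjusted p under 0.05, and DESeq2 called 1 higher. Without WT replicate 4, edgeR called 4 of these 19 higher and 0 lower.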

How the data were processed

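Poly(A) RNA of liver was sequenced in 10 libraries. The authors deposited 1 table of raw counts by symbol, each library in its own column, and every column was used. The submitters' processing notes name STAR, HTSeq, DESeq2 and the build mm10. Of these the versions and roles, and for the counting the annotation and use of strand, were not given in the sources used here. Of 23056 genes, 22 had no count in any library, and 13688, with 99.8% of counts, were tested. Pairs of libraries within a group differed beyond sampling noise (chi-square per degree of freedom 20.8 to 169).

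The test was edgeR 4.0.16 (R 4.3.3), quasi-likelihood with robust dispersion, TMM scaling, filterByExpr and Benjamini-Hochberg adjustment over all genes tested at 0.05, without covariates. The code was tested on simulated data with a set noise level. It recovered 8.33% of 1.5-fold, 35.4% of 2-fold and 100% of 4-fold and 8-fold changes. A missing call at the smaller folds therefore says little. CPM are counts over the TMM-scaled library size, and log2 CPM used a prior count of 2. SE is the log2 fold change over the square root of F. Single values were compared by exact permutation on log2(CPM + 0.5). As alternatives the fit was repeated with RLE or upper-quartile scaling, with no filter or at least 1 CPM in 4 libraries, DESeq2 1.42.0, limma-voom (limma 3.58.1), a replicate block, and leaving out each library. Positions, exon lengths and coding ends are from GENCODE M21 (22277 symbols matched), promoters from RefSeq, and identities from Biopython 1.88 alignments.

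The members and lists were chosen with earlier results of these data known. Named were all 10 members, Ifrd1, up to 3 called genes per list by smallest p, and the 3 genes most like Acot1, Acot2 and Acot5. The markers and the neighbouring and overlapping genes, Ppara, and the other thioesterases were named for context after their values were seen.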

Additional observations from a re-analysis of the deposited data

Results flagged for a closer look

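Acot12, the cytosolic acetyl-CoA hydrolase, was at 122 CPM in WT replicate 5, far above the other WT libraries. The next highest WT library had 85.4 CPM and the lowest 64.3 CPM, so the gap to the nearest library was 0.635 of the WT range. This was 1 of 20 groups examined (10 members in 2 genotypes), and chance alone marks about 1 in 20 such groups.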

How the results depend on the processing

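Over all genes edgeR called 182 (77 higher, 105 lower in KO), DESeq2 1624 (579 higher, 1045 lower), limma-voom 283 (208 higher, 75 lower), and edgeR with upper-quartile scaling 153 (78 higher, 75 lower). Leaving out each library gave 0 to 2893 calls: 0 without KO replicate 1, 2 or 3 (2681 to 2740 genes at an unadjusted p under 0.05, edgeR), 2 without KO replicate 4 or WT replicate 1 or 5, 55 without WT replicate 2, 10 without WT replicate 3, 20 without WT replicate 6 and 2893 without WT replicate 4. The number of members called, 1 at first, was 2 with DESeq2, 0 with limma-voom (2 at an unadjusted p under 0.05), 0 with no filter (3 at an unadjusted p under 0.05, edgeR), and 0 to 3 when each library was left out. The log2 fold change of Ifrd1 stayed between -1.68 and -1.44 when each library was left out.

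Among members whose direction turned, Acot3 was at -0.00058 with RLE scaling, -0.0048 with DESeq2 and -0.0013 with limma-voom, and at -0.47 to 0.39 when each library was left out. The corresponding leave-one-out ranges were -0.18 to 0.43 for Acot2, -0.043 to 0.11 for Acot8 and -0.23 to 0.066 for Acot12. Acot1, Acot4, Acot5, Acot6, Acot7 and Acot13 kept their direction in all 17 alternatives. The Acot5 value was -6.29 with limma-voom. The causes were not tested.

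The labels do not say whether replicate numbers pair the libraries. Same-numbered KO and WT libraries deviated from their group means with correlations of 0.179, 0.0690, -0.0290 and -0.0205. The WT library that correlated best was replicate 1 for KO replicate 1 and replicate 2 for KO replicate 2. It was WT replicate 4 for KO replicate 3 and WT replicate 6 for KO replicate 4, so pairing was not settled. With the replicate block, 1 gene and 0 members were called (3 members at an unadjusted p under 0.05, edgeR), Ifrd1 was at -1.61, Acot2 at -0.23, Acot5 at -7.06 and Acot12 at 0.12.

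Chosen after seeing the data, the length of the coding transcript in place of all exons moved the KO shares to 48.3% mitochondrial and 19.7% peroxisomal, put Acot1 above Acot4 in KO (9.29 and 7.20 CPM per kilobase) and put Acot7 above Acot4 in WT (5.59 and 4.72). Leaving out single libraries from the levels and shares was also chosen after seeing the data. Depth limits Acot5 in KO, where 9 counts remain.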

Other observations

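Other thioesterases of fatty acyl-CoA or acyl groups, outside the 10 members, were read as a list. Of 12 tested, 0 were called by edgeR (1.33% of all genes) or limma-voom (2.07%). At an unadjusted p under 0.05, 2 were higher and 1 lower in KO (11.6% and 14.4% of all genes, edgeR). DESeq2 called 2 higher and 0 lower (3.66% and 6.6% of all genes). Without WT replicate 4, edgeR called 2 higher and 1 lower (10.5% and 10.9% of all genes). The median log2 fold change was 0.03. Them4 was at 19.9 ± 3.35 CPM in KO and 10.2 ± 4.73 CPM in WT, and Them7 at 36.0 ± 4.62 CPM in KO and 15.8 ± 8.72 CPM in WT (SD, n = 4 and 6). Both had their highest WT value in WT replicate 4 (17.8 CPM of Them4 and 27.4 CPM of Them7). Fasn was lower on average in KO, at 133 ± 51.9 CPM in KO and 251 ± 94.1 CPM in WT. It had 72.3 CPM in WT replicate 4 and at least 237 CPM in the other WT libraries. Acot9, a mitochondrial thioesterase, was at 4.62 ± 0.740 CPM in KO and 6.29 ± 1.81 CPM in WT. Acot11, known from brown fat, was at 3.12 ± 0.828 CPM in KO and 5.57 ± 4.40 CPM in WT. Baat, which conjugates bile acids and is related to the type I enzymes, was at 316 ± 41.5 CPM in KO and 268 ± 102 CPM in WT.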
